A study of Mus musculus with 6 samples.

Results

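The Hox genes of all 4 mouse clusters were followed by paralogue position in sorted embryonic cells. Members were probe sets whose platform annotation gave exactly 1 gene symbol, that symbol being a Hox gene of cluster A, B, C or D. They numbered 48 probe sets for 33 genes, out of 34945 probe sets with 1 symbol for 18193 genes. Of the 39 Hox genes in RefSeq, 6 were without such a probe set here, and 3 further probe sets that carried 2 Hox symbols each were not used. Cells positive for Noto-GFP were set against the GFP-negative cells of the same pools. All embryos came from litters heterozygous for Noto-GFP on a mixed 129S3;ICR background, of mixed sex, at embryonic day 8.5 with a median somite number of 6, so both groups share the reporter allele and the background. Tissue behind the boundary of somites SI and SII was pooled from 23, 39 or 52 embryos and dissociated with 1% trypsin before sorting. Sorting gave roughly 2600, 4300 and 6600 GFP-positive cells for pools 1, 2 and 3. There was 1 array of each sorted group for every pool, hence n = 3 arrays a group, and each array stands for pooled animals.

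Hox genes encode homeodomain transcription factors that give cells along the trunk their position. Within a cluster the genes lie in the order of their paralogue groups, from group 1 to group 13, and vertebrate embryos switch them on in that order in time and along the body, low-numbered groups earlier and further forward. Groups 9 to 13 are related to Abdominal-B of Drosophila and pattern the lower trunk, tail and limbs. Cdx factors, retinoic acid, WNT and FGF signals are known inputs to the clusters at the posterior end of the embryo. Noto is a homeobox gene of the node and of notochord progenitors, which lie in the midline.

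Values are the deposited linear intensities, and fold changes are differences of log2(intensity + 32), GFP-positive minus GFP-negative, with standard errors from limma. The offset makes the fold change of a dim gene smaller than the ratio of its intensities, and levels are compared only between arrays for the same probe set. Node and notochord markers followed the sort: all 9 listed genes were higher (Dand5 was under the 40th percentile on all GFP-negative arrays), against 2.61% of all genes. Their summed intensities were 8856 to 11226 in GFP-positive arrays, against 309 to 779.7 in GFP-negative arrays. This list was chosen with earlier results of these data known, so it is not an independent check of the sort. The arrays of pool 1 stood apart in RNA quality, with Gapdh 3′ over 5′ ratios of 14.0 (GFP-positive) and 15.4 (GFP-negative), whereas the other 4 arrays had 1.60 to 2.22. Across probe sets, the correlation of GFP-negative array 1 was 0.964 to its GFP-positive partner, against 0.938 and 0.914 to the other GFP-negative arrays. Hox values without pool 1 are given where that pool changed a call or a sign.

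Of the 33 Hox genes, 27 were measured, meaning that a probe set reached the array's 40th percentile on at least 3 of the 6 arrays. The anterior gene Hoxb1 was higher in GFP-positive cells and the posterior genes Hoxc9 and Hoxa10 were lower, while the other 24 did not pass an adjusted p of 0.05 over 12628 genes. The 1 higher gene is 3.70% of those measured, against 2.61% of all genes tested, and the 2 lower genes are 7.41%, against 1.43% of all genes. At an unadjusted p under 0.05 there were 2 higher and 7 lower, where all genes gave 12.1% and 9.74%. The median Hox log2 fold change was -0.26 over 27 genes, beside 0.01 over all genes. In mixed cell populations such as these, fewer cells of a type and less RNA per cell cannot be told apart.

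**Figure D1:**
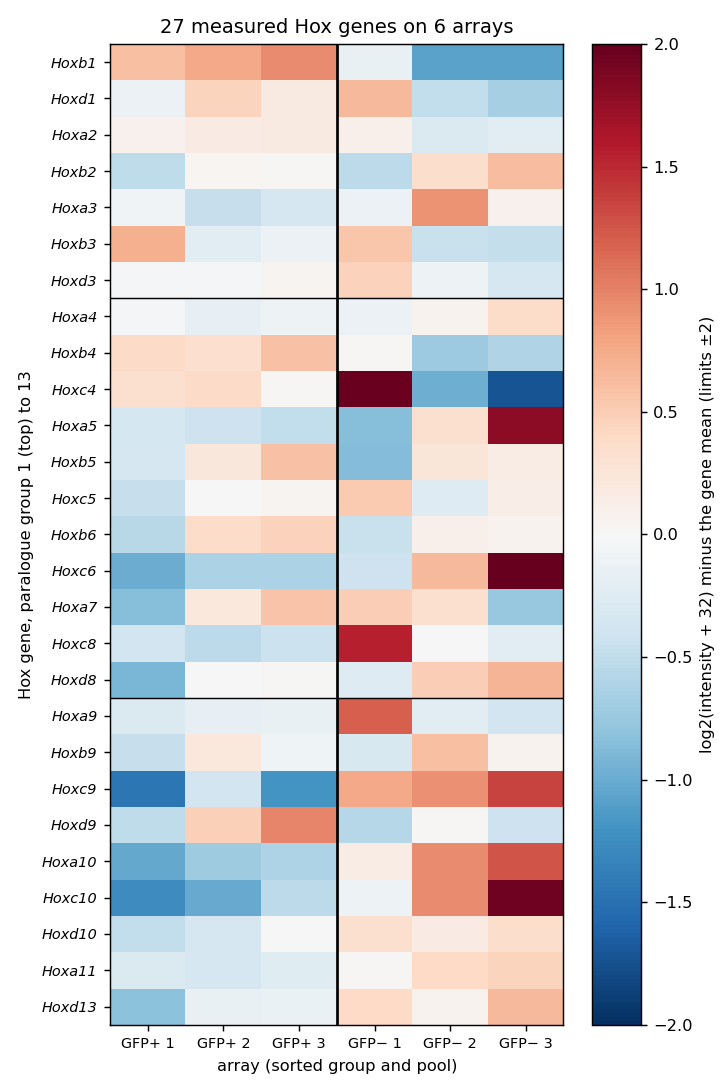
Colour map of the 27 measured Hox genes (rows, paralogue group 1 at the top to 13 at the bottom, lines after groups 3 and 8) on the 6 arrays (columns, GFP-positive pools 1 to 3 left of GFP-negative pools 1 to 3), with colour for log2(intensity + 32) minus the gene's mean over the 6 arrays. Hoxb1 is red in the GFP-positive columns and Hoxc9, Hoxa10 and Hoxc10 are blue there, while GFP-negative array 1 differs from GFP-negative arrays 2 and 3 for Hoxc4, Hoxc8 and Hoxa9.

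Among anterior genes, groups 1 to 3, Hoxb1 was the member that passed. Hoxb1 is known for its part in the identity of a hindbrain segment and for early expression in the primitive streak. Its intensities were 1536, 1714 and 1959 in GFP-positive pools 1 to 3, against 901, 464 and 459 in GFP-negative pools 1 to 3. The groups did not overlap, and GFP-negative array 1 was the highest of the GFP-negative arrays. The mean was 1736 ± 212 in GFP-positive arrays, against 608 ± 254 in GFP-negative arrays (SD, n = 3 each). Hoxb1 rose by 1.53 ± 0.28 on the log2 scale (limma, adjusted p = 0.0264), and within pools 1, 2 and 3 the differences were 0.75, 1.82 and 2.02. Without pool 1 the value was 1.92 ± 0.13 (adjusted p = 6.43e-05). The call was lost without GFP-positive array 2 or 3 (adjusted p = 0.118 and 0.134), without GFP-negative array 2 or 3 (0.133 and 0.101), and without pool 2 or 3 (0.47 and 0.362), with log2 fold changes between 1.28 and 1.53.

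The promoter of Hoxb1 is shown because it is the member that rose and because this gene is known to be maintained through sites bound jointly by Pbx and Hox proteins. The window, from RefSeq on build GRCm38.p6, is chr11:96365508-96365807 on the + strand and holds 300 bases around the annotated start. Capitals mark the letters TGATNNAT, a Pbx-Hox pattern, or TTTATG, a Cdx pattern, searched on both strands.
Hoxb1: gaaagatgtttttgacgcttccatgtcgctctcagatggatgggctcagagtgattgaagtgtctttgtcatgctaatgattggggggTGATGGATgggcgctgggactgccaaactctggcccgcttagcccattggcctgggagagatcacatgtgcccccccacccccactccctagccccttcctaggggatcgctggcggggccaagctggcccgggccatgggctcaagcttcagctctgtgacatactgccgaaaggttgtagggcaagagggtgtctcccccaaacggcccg
The Hoxb1 window held 1 match to TGATNNAT, TGATGGAT, on the gene's own strand, and none to TTTATG. Over all 32851 RefSeq windows of this length, TGATNNAT was found in 8.85% and TTTATG in 11.9%. Of 24 Hox windows, 4 (of Hoxa2, Hoxb1, Hoxb8 and Hoxd11) held the Pbx-Hox letters and 5 (of Hoxa7, Hoxb8, Hoxd3, Hoxd4 and Hoxd11) the Cdx letters. These are matches of letters, and binding was not measured here.

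The other 6 genes of groups 1 to 3 did not pass. Hoxd1, the group 1 gene of cluster D, had 613, 929.8 and 766 in GFP-positive pools 1 to 3, against 1073, 466 and 413 in GFP-negative pools 1 to 3. The groups overlapped through GFP-negative array 1, the highest of the 6. Its log2 fold change was 0.34 ± 0.36 (limma, adjusted p = 0.615) with all arrays. It was 0.75 ± 0.22 once GFP-negative array 1 was left out (adjusted p = 0.0475) and 0.90 ± 0.15 without pool 1 (adjusted p = 0.00266). The fit without GFP-negative array 1 called 1293 of all 12628 genes higher and 1294 lower, against 329 and 180 with all arrays. This holds for every pass without that array given below. Hoxa2, a selector gene of the branchial arches, had 0.28 ± 0.20, and Hoxb2, its group 2 paralogue, had -0.30 ± 0.33. In group 3 the values were -0.58 ± 0.29 for Hoxa3, 0.25 ± 0.36 for Hoxb3 and -0.0084 ± 0.24 for Hoxd3, and the sign of Hoxd3 turned with quantile normalization and with median scaling. Without pool 1, Hoxb2 and Hoxa3 passed as lower, at -0.46 ± 0.15 and -0.89 ± 0.25 (adjusted p = 0.0485 and 0.0264).

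Among central genes, groups 4 to 8, 0 of the 11 measured passed in limma without a pool term. With the pool as a block, Hoxb4 passed as higher and Hoxc6 and Hoxd8 as lower. That fit called 7.41% of measured Hox genes higher and 18.5% lower, against 8.52% and 6.87% of all genes. On simulated arrays it made more false calls than its threshold allows. Those arrays had a far smaller share of changed probe sets than the share of genes called here. The share of false calls in these data is therefore not known. Hoxb4, whose product is known for expanding blood stem cells, had 211, 201 and 245 in GFP-positive pools 1 to 3, against 157, 80.4 and 89.9 in GFP-negative pools 1 to 3. Every GFP-positive array was above every GFP-negative one. The difference was 0.87 ± 0.25, with adjusted p = 0.0947 without the block and 0.0281 with it, and it passed without GFP-negative array 1 (1.10 ± 0.20, adjusted p = 0.00846) and without pool 1 (1.12 ± 0.16, adjusted p = 0.00153). Its other kept probe set had -0.24 ± 0.27.

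Hoxc6, a gene of the thoracic region, had 17.5, 31.6 and 31.1 in GFP-positive pools 1 to 3, against 41.6, 121 and 371 in GFP-negative pools 1 to 3. All GFP-positive arrays were below all GFP-negative arrays, and the GFP-negative arrays spread widely. The difference was -1.51 ± 0.52, with adjusted p = 0.145 without the block and 0.0255 with it, and its other kept probe sets had -1.10 ± 0.41 and -0.37 ± 0.19. It passed without GFP-negative array 1 (-2.09 ± 0.37, adjusted p = 0.00761) and without pool 1 (-1.97 ± 0.38, adjusted p = 0.00515), and without GFP-negative array 3 it was -0.87 ± 0.32 (adjusted p = 0.263).

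Hoxd8, the group 8 gene of cluster D, had 106, 227 and 231 in GFP-positive pools 1 to 3, against 186, 335 and 383 in GFP-negative pools 1 to 3. The groups overlapped between pools, and within pools 1, 2 and 3 the GFP-positive array was lower, with differences of -0.66, -0.50 and -0.66. Its log2 fold change of -0.61 ± 0.34 had an adjusted p of 0.334 without the block and 0.0426 with it, and its second kept probe set had -0.21 ± 0.21. Without pool 1 it passed at -0.58 ± 0.14 (adjusted p = 0.0153), and without GFP-positive array 1 it was -0.30 ± 0.31 (adjusted p = 0.599).

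Hoxc8, a thoracic gene, had 877, 789.7 and 848 in GFP-positive pools 1 to 3, against 3428, 1135 and 982 in GFP-negative pools 1 to 3. The groups did not overlap, and GFP-negative array 1 lay far above the other GFP-negative arrays. The log2 fold change was -0.88 ± 0.42 (adjusted p = 0.266), and -0.36 ± 0.13 without pool 1 (adjusted p = 0.0673).

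Hoxc4, chosen after its values were seen, turned between pools. It had 1145, 1192 and 924 in GFP-positive pools 1 to 3, against 3661, 447 and 251 in GFP-negative pools 1 to 3. The within-pool differences were -1.65, 1.35 and 1.75, so that pool 1 ran opposite to pools 2 and 3. Over all arrays the value was 0.49 ± 0.80 (adjusted p = 0.755), against 1.59 ± 0.26 without GFP-negative array 1 (adjusted p = 0.00538) and 1.55 ± 0.24 without pool 1 (adjusted p = 0.00204). Leaving out GFP-negative array 3 gave -0.26 ± 0.72, and leaving out pool 3 gave -0.15 ± 0.79.

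Hoxa5, also chosen after its values were seen, differed between its probe sets. The probe set that stood for it had 477, 458 and 432 in GFP-positive pools 1 to 3, against 328, 786 and 2234 in GFP-negative pools 1 to 3, and a log2 fold change of -0.84 ± 0.56 (adjusted p = 0.409). The groups overlapped, and GFP-negative array 3 was the highest. Leaving out GFP-negative array 1 gave -1.48 ± 0.37 (adjusted p = 0.0268) and leaving out pool 1 gave -1.51 ± 0.38 (adjusted p = 0.0171). Its other kept probe set had 179, 180.4 and 258 in GFP-positive pools 1 to 3, against 148, 158 and 131 in GFP-negative pools 1 to 3, with 0.41 ± 0.22. There all GFP-positive arrays lay above all GFP-negative arrays, so the direction of Hoxa5 was not settled.

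The other central genes had log2 fold changes of -0.21 (Hoxa4), 0.32 (Hoxb5), -0.26 (Hoxc5), 0.18 (Hoxb6) and -0.038 (Hoxa7). None of these 5 passed in either fit, and the sign of Hoxa7 turned with median scaling.

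**Figure D2:**
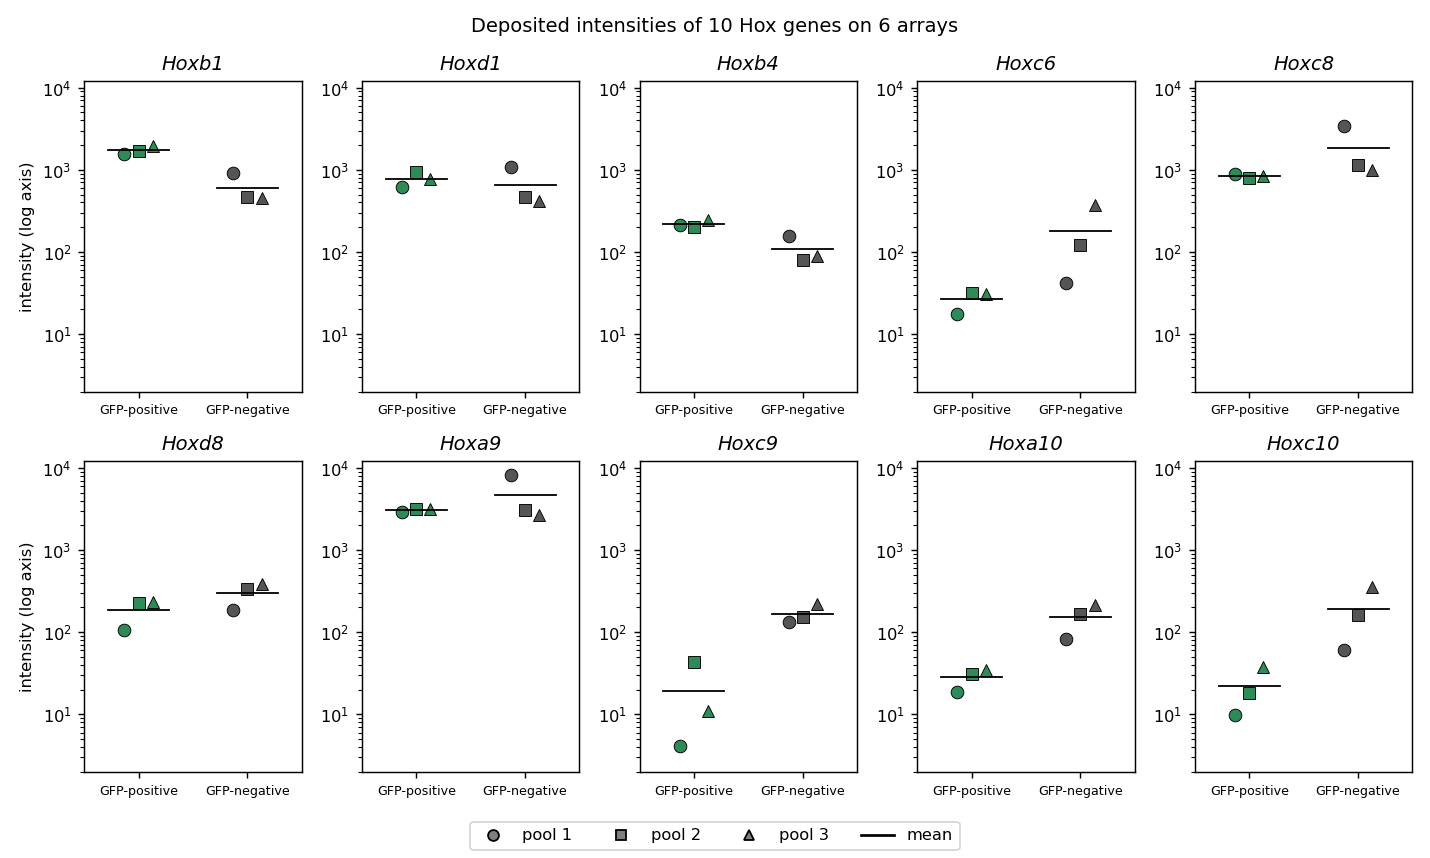
Deposited intensities (log axis) of the 10 Hox genes given in full by the naming rule, GFP-positive arrays left of GFP-negative arrays, with marker shape for the pool and a line at the mean of 3 arrays. All GFP-positive arrays lie above the GFP-negative ones for Hoxb1 and Hoxb4 and below them for Hoxc6, Hoxc8, Hoxc9, Hoxa10 and Hoxc10, while GFP-negative array 1 is the highest array for Hoxd1, Hoxc8 and Hoxa9.

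Both genes that fell were posterior ones. Of 14 genes of groups 9 to 13 with a probe set, 9 were measured. The log2 fold change was below 0 for 8 of these, the exception being Hoxd9, and 6 of the 9 had every GFP-positive array below every GFP-negative array. Over all 27 measured Hox genes 8, or 29.6%, were separated in this way, against 12.2% of all genes, and 2, or 7.41%, had every GFP-positive array above, against 15.5% of all genes. These counts are descriptions, since Hoxc9, Hoxc10 and Hoxd10 reached the percentile on all GFP-negative arrays but not on all GFP-positive ones. Hoxd10 and Hoxa11 are also dim, and the 40th percentile itself was lower on GFP-positive arrays (11.7 to 13.8) than on GFP-negative arrays (14.3 to 18.4).

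Hoxc9, a gene of the lower thoracic spinal cord and skeleton, had the lowest fold change of the 27. Its intensities were 4.18, 43.2 and 11.0 in GFP-positive pools 1 to 3, against 135, 154 and 218 in GFP-negative pools 1 to 3. The groups did not overlap, and the GFP-positive values of pools 1 and 3 lay below the 40th percentile of their arrays. The mean was 19.4 ± 20.8 in GFP-positive arrays, against 169 ± 43.7 in GFP-negative arrays (SD, n = 3 each). The log2 fold change was -2.02 ± 0.30 (limma, adjusted p = 0.0124), with -2.20, -1.31 and -2.54 within pools, and -1.92 ± 0.28 without pool 1 (adjusted p = 0.0014). The call was lost without GFP-positive array 3 (adjusted p = 0.0655), GFP-negative array 2 (0.0725), pool 2 (0.105) or pool 3 (0.163), with values between -2.37 and -1.75.

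Hoxa10, known for patterning of the lumbar region and the reproductive tract, had 18.8, 30.6 and 35.2 in GFP-positive pools 1 to 3, against 81.8, 165 and 213 in GFP-negative pools 1 to 3. All GFP-positive arrays were below all GFP-negative arrays. The mean was 28.2 ± 8.48 in GFP-positive arrays, against 153 ± 66.5 in GFP-negative arrays (SD, n = 3 each). Its log2 fold change was -1.56 ± 0.30 (limma, adjusted p = 0.028), with -1.16, -1.65 and -1.87 within pools, and -1.76 ± 0.18 without pool 1 (adjusted p = 0.000317). The call was lost without any 1 of GFP-positive arrays 1, 2 and 3 (adjusted p = 0.0699, 0.115 and 0.101), without GFP-negative array 2 or 3 (0.14 and 0.0806), and without pool 2 or 3 (0.434 and 0.219), with values between -1.65 and -1.32. Its other probe set was too dim for the filter and had -0.43.

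RefSeq gives Hoxa10 more than 1 start, and both windows are shown beside that of Hoxb1 as the promoters of a member that fell. They lie on the - strand of build GRCm38.p6, the upstream one at chr6:52240805-52241104 and the downstream one at chr6:52234890-52235189. No letters are in capitals, since neither the Pbx-Hox nor the Cdx pattern was found in them on either strand.
Hoxa10 upstream start: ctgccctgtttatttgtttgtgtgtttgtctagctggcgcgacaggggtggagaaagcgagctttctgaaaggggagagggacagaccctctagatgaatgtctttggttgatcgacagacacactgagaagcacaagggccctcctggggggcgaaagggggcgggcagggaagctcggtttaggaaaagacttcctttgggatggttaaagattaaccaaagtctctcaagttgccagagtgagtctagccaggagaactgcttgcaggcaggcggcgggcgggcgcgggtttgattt
Hoxa10 downstream start: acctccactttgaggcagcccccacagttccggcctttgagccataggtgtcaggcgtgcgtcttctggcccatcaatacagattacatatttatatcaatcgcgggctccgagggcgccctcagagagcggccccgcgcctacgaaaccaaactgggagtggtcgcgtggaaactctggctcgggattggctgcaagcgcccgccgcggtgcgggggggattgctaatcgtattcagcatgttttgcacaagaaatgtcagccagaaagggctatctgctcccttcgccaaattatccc

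Hoxc10, a lumbar gene whose product is known in hindlimb motor neurons, had 9.95, 18.3 and 38.1 in GFP-positive pools 1 to 3, against 61.6, 163 and 356 in GFP-negative pools 1 to 3. No GFP-positive array reached the lowest GFP-negative one. The difference was -1.86 ± 0.47, with adjusted p = 0.0645 without the block and 0.00336 with it. It passed with median scaling of the arrays (adjusted p = 0.0431), without GFP-negative array 1 (0.00303) and without pool 1, at -2.21 ± 0.31 (0.00135). Groups also did not overlap for Hoxd10 (-0.56 ± 0.17), Hoxa11 (-0.58 ± 0.18) and Hoxd13 (-0.74 ± 0.26), which act in limb patterning. Their adjusted p was 0.106, 0.119 and 0.143, and with the block 0.053, 0.0521 and 0.0503. The other Hoxd13 probe set was too dim for the filter and had -0.011, with groups that overlapped. Hoxa11 had 30.0, 28.3 and 31.9 in GFP-positive pools 1 to 3, against 45.2, 67.8 and 70.9 in GFP-negative pools 1 to 3, and it passed without GFP-negative array 1 (-0.71 ± 0.17, adjusted p = 0.0231) and without pool 1 (-0.71 ± 0.16, adjusted p = 0.0113).

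Hoxa9, known in blood progenitors and the trunk skeleton, had 2859.8, 3138 and 3157 in GFP-positive pools 1 to 3, against 8114, 3046 and 2699 in GFP-negative pools 1 to 3. The groups overlapped, and GFP-negative array 1 was far above the other 5 arrays. Its value of -0.41 ± 0.38 (adjusted p = 0.557) became 0.087 ± 0.15 without GFP-negative array 1 and 0.13 ± 0.12 without pool 1, a change of sign. A second kept Hoxa9 probe set had -0.96 ± 0.40 (adjusted p over probe sets = 0.241, and 0.0338 with the block). Hoxb9 had -0.23 ± 0.27.

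Hoxd9, singled out after its values were seen as the posterior gene above 0, had 289, 599.6 and 866 in GFP-positive pools 1 to 3, against 276, 432 and 311 in GFP-negative pools 1 to 3. The groups overlapped, and GFP-positive arrays 2 and 3 were the highest. The log2 fold change was 0.63 ± 0.37 (adjusted p = 0.356), and without pool 1 it passed as higher at 0.92 ± 0.21 (adjusted p = 0.0109). The 4 measured genes of group 9 thus ran between -2.02 (Hoxc9) and 0.63 (Hoxd9).

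The 6 genes that did not reach the filter were Hoxb7, Hoxd11, Hoxd12, Hoxa13, Hoxb13 and Hoxc13. All but Hoxb7 are of groups 11 to 13. No intensity exceeded 8.12 in GFP-positive or 29.4 in GFP-negative arrays, and their log2 differences lay between -0.38 and 0.020. All GFP-positive arrays lay below all GFP-negative arrays for Hoxa13 and Hoxc13. These values are near the floor, where the GFP-negative arrays had the higher 40th percentiles. No share of separated genes was computed under the filter, so nothing is read from this separation. Without the filter Hoxa13 had -0.38 ± 0.14 and Hoxc13 -0.21 ± 0.11 (adjusted p = 0.204 and 0.332), and none of the 6 passed.

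**Figure D3:**
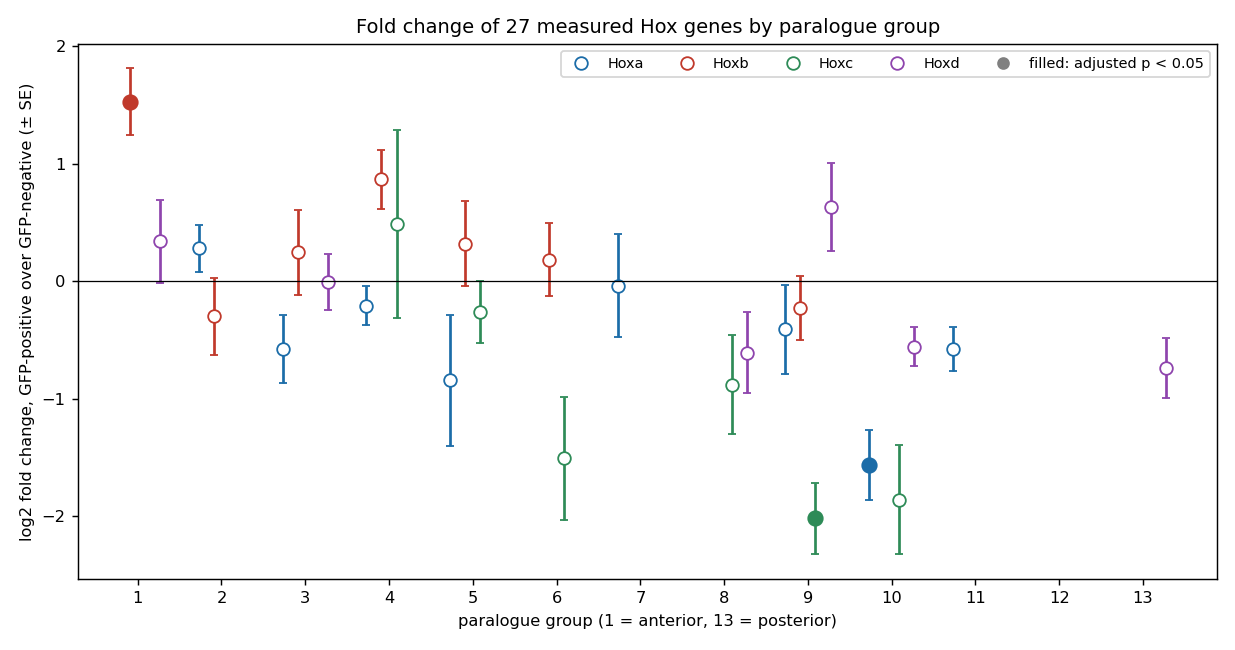
Log2 fold change, GFP-positive over GFP-negative, of the 27 measured Hox genes against paralogue group (1 to 13), with standard errors from limma, colour by cluster and filled points for an adjusted p under 0.05. The filled points are Hoxb1 at 1.53, Hoxa10 at -1.56 and Hoxc9 at -2.02.

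By position, the median log2 fold change was 0.25 for the 7 genes of groups 1 to 3, -0.21 for the 11 of groups 4 to 8 and -0.58 for the 9 of groups 9 to 13. Within pools 1, 2 and 3 the medians were 0.016, 0.23 and 0.39 for groups 1 to 3, -0.57, -0.098 and -0.074 for groups 4 to 8 and -1.16, -0.51 and -0.69 for groups 9 to 13. Across the 27 genes, fold change and paralogue group had a Spearman rho of -0.59, with -0.51, -0.54 and -0.49 within pools 1, 2 and 3. All 33 genes, without the filter, gave -0.42. These are descriptions across genes with no test: all points share the same 6 arrays, and genes of a cluster are neighbours. By cluster, rho was -0.43 over 8 genes of cluster A, -0.36 over 7 of cluster B, -0.89 over 6 of cluster C and -0.54 over 6 of cluster D. The value of cluster C was -0.31, -0.94 and -0.60 within pools 1, 2 and 3, and -0.39 over its 7 genes without the filter, where pool 1 alone gave 0.18.

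**Figure D4:**
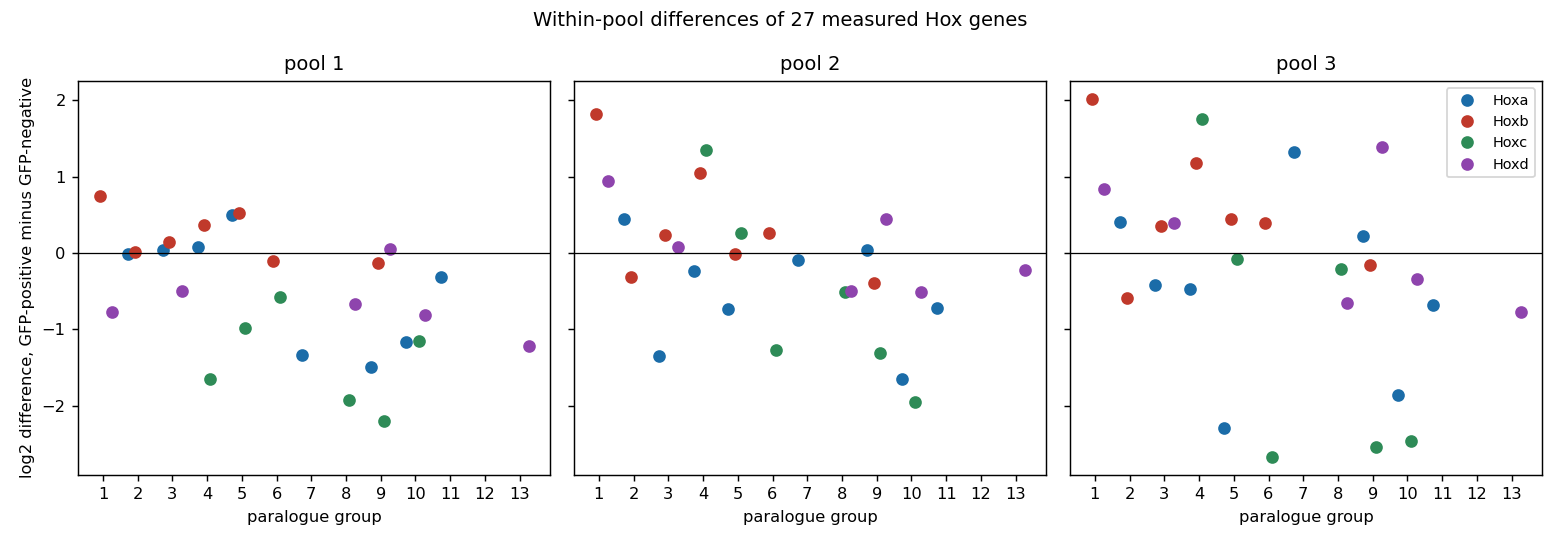
Log2 difference, GFP-positive minus GFP-negative, of the 27 measured Hox genes against paralogue group, in 1 panel for each pool, with colour by cluster. Hoxb1 is the topmost point in all 3 panels, at 0.75, 1.82 and 2.02, and Hoxc4 lies at -1.65 in pool 1 and at 1.35 and 1.75 in pools 2 and 3.

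The sign was the same in all 3 pools for 4 genes above 0 (Hoxb1, Hoxb3, Hoxb4 and Hoxd9) and for 10 below 0, against 28.4% and 25.0% of all genes. Without pool 1, 5 Hox genes passed as higher (Hoxb1, Hoxd1, Hoxb4, Hoxc4 and Hoxd9), or 18.5% against 19.3% of all genes. As lower, 9 passed (Hoxb2, Hoxa3, Hoxa5, Hoxc6, Hoxd8, Hoxc9, Hoxa10, Hoxc10 and Hoxa11), or 33.3% against 17.3% of all genes. The sign of 4 genes turned without pool 1, to 0.23 ± 0.17 for Hoxd3, 0.093 ± 0.19 for Hoxc5, 0.61 ± 0.31 for Hoxa7 and 0.13 ± 0.12 for Hoxa9. None of the 4 passed there. Hoxa7 varied between pools, at -1.34, -0.098 and 1.32 within pools 1, 2 and 3. Without pool 2, 0 Hox genes passed in limma, where 0.0396% of all genes were higher and 0% lower, and 1 was higher and 4 were lower at an unadjusted p under 0.05, against 4.58% and 3.01% of all genes. Without pool 3, 0 Hox genes passed, where 0.253% of all genes were higher and 0.00792% lower, and 1 was higher and 6 were lower at an unadjusted p under 0.05, against 5.12% and 3.56% of all genes.

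**Figure D5:**
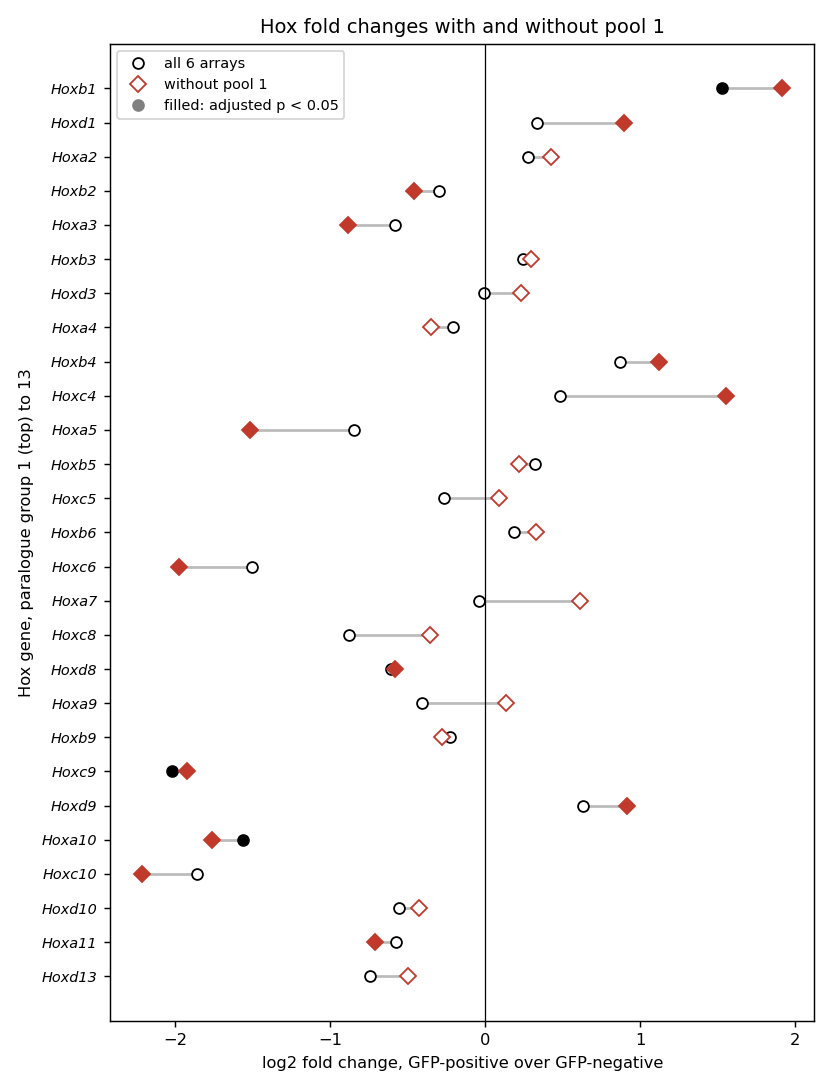
Log2 fold change, GFP-positive over GFP-negative, of the 27 measured Hox genes with all 6 arrays (circles) and without both arrays of pool 1 (diamonds), filled where the adjusted p was under 0.05. Hoxc4 lies at 0.49 with all arrays and at 1.55 without pool 1, and Hoxc9 at -2.02 and -1.92.

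Probe sets of 1 gene did not always share a direction. Of 8 Hox genes with several kept probe sets, 3 (Hoxc6, Hoxd8 and Hoxa9) had 1 sign in all of them, and 5 (Hoxa3, Hoxb3, Hoxa4, Hoxb4 and Hoxa5) had at least 1 probe set of the opposite sign. Hoxb3 had 0.25 ± 0.36 for the probe set that stood for it and -0.54 ± 0.25 for the other. The probe sets standing for Hoxa3, Hoxa4, Hoxa5, Hoxc6 and Hoxd8 are of the array maker's types that can match related sequences, so their values may include paralogues.

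Over all genes, limma without the block called 2.61% higher and 1.43% lower. Beside these shares, marker lists of other cells of the posterior region also differed between the sorted groups. Of 9 lateral and intermediate mesoderm genes 6 were lower, with summed intensities of 367 to 580.2 in GFP-positive arrays, against 2278 to 4667 in GFP-negative arrays. Of 6 allantois and hindlimb mesoderm genes 3 (Tbx4, Vcam1 and Pitx1) were lower, with sums of 136 to 280.4 in GFP-positive arrays, against 654 to 2045 in GFP-negative arrays. Vcam1 was under the 40th percentile on all GFP-positive arrays, so it was kept only through the GFP-negative ones and had to differ. GFP-negative array 1 had the lowest sum of the GFP-negative arrays on both lists. That was also so on the node and notochord, endothelium and blood, neural plate and gut endoderm lists. It was not so on the presomitic and somite and the surface ectoderm lists. Of 9 measured endothelium and blood genes 5 were lower, and Pecam1 did not reach the filter. The sums were 363 to 3193 in GFP-positive arrays, against 8724 to 18330.1 in GFP-negative arrays. The GFP-negative sums came mainly from Hbb-y, which did not pass without the block (limma, adjusted p = 0.0668). Its mean was 1473 in GFP-positive arrays, against 9462 in GFP-negative arrays. Presomitic and somite genes ran the other way, with 5 of 9 higher and sums of 5581 to 6543 in GFP-positive arrays, against 1981 to 2470.4 in GFP-negative arrays. Of 6 neural plate genes 1, Nkx1-2, was lower, with sums of 1319.9 to 1943 in GFP-positive arrays, against 2620.3 to 2862 in GFP-negative arrays. These lower sums came mainly from Nkx1-2 itself, whose GFP-positive mean was 712, against a GFP-negative mean of 1900. Hes5 and Sox2 had higher GFP-positive means, 408 and 511, against GFP-negative means of 210 and 459. The dimmer Pax6, Olig3 and Sox1 had log2 fold changes of -0.61, -0.70 and -0.25. Of 5 surface ectoderm genes 4 were lower, with sums of 71.9 to 93.6 in GFP-positive arrays, against 211 to 288 in GFP-negative arrays, and 2 of the 4, Dlx5 and Gata3, were kept only through the GFP-negative arrays in the same way. Of 5 gut endoderm genes 2 were higher and 1 lower, with sums of 856 to 2033 in GFP-positive arrays, against 598 to 719 in GFP-negative arrays. With the pool as a block, 8.52% of all genes were called higher and 6.87% lower. There 7 lateral and intermediate mesoderm, 5 allantois and hindlimb, 9 endothelium and blood and 4 surface ectoderm genes were lower. As higher, 8 presomitic and somite genes passed. In that fit 3 neural plate genes were lower and 1, Hes5, higher, and 3 gut endoderm genes were higher and 1 lower. Some markers lay far under the 40th percentile, as Vcam1 did at 0.562 on GFP-positive array 1. The part of these cells in the Hox differences was not tested.

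Of 16 measured regulators upstream of the Hox clusters, 3 were higher and 0 lower, where 2.61% and 1.43% of all genes passed. At an unadjusted p under 0.05 there were 8 and 1, against 12.1% and 9.74% of all genes. Aldh1a2, the main enzyme of retinoic acid synthesis in the embryo, had 1916, 3213 and 3466 in GFP-positive pools 1 to 3, against 475, 955 and 989 in GFP-negative pools 1 to 3. The groups did not overlap, and Aldh1a2 rose by 1.81 ± 0.34 (limma, adjusted p = 0.0264). Acvr2b, a receptor through which Gdf11 acts on posterior Hox genes, rose by 1.13 ± 0.23, and the growth factor gene Fgf8 rose by 1.06 ± 0.21 (adjusted p = 0.0332 and 0.0305). Each of the 3 calls was lost without GFP-positive array 2 or 3, GFP-negative array 2 or 3, or pool 2 or 3, with adjusted p between 0.0589 and 0.585. Acvr2b also lost its call without GFP-positive array 1 (0.0621), and Fgf8 without the filter (0.0631). With the pool as a block 6 were higher and 1 lower, against 8.52% and 6.87% of all genes, adding Cdx1, Fgf4 and Gbx2 as higher and Cdx4 as lower.

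The 3 Cdx genes, known activators of central and posterior Hox genes, differed in sign. Cdx1 had 0.87 ± 0.23 (adjusted p = 0.0739, and 0.0239 with the block) and Cdx2 had 0.85 ± 0.33 (0.187 and 0.0887). Cdx4 had 178, 429 and 289.8 in GFP-positive pools 1 to 3, against 679, 621 and 572 in GFP-negative pools 1 to 3. Its groups did not overlap, and its value was -1.06 ± 0.30 (adjusted p = 0.0884, and 0.0262 with the block). Of 7 measured TALE cofactors, which bind DNA beside Hox proteins, 0 passed in limma in either fit. At an unadjusted p under 0.05 there were also 0, where 12.1% of all genes were higher and 9.74% lower. The largest differences among the cofactors were 0.50 ± 0.27 for Meis3 and 0.45 ± 0.26 for Pbx2 (adjusted p = 0.31 and 0.344).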

How the data were processed

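RNA of the 6 sorted samples was amplified and biotin-labeled for arrays, per the labels' protocols. The deposited intensities are linear and come from GCOS 1.4, per the submitters' processing notes. Their trimmed mean (2% off each end) was 150.0 on all 6 arrays. Their medians were 19.8 to 22.9 in GFP-positive arrays, against 23.2 to 28.0 in GFP-negative arrays. The 40th percentiles were 11.7 to 13.8 and 14.3 to 18.4, so the low end of the scale differed between the groups. Precision is limited by having 3 arrays a group. Of 45101 probe sets, 64 were controls, 932 carried several symbols and 9160 are unnamed here.

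From the deposited values log2(intensity + 32) was computed. The 27821 non-control probe sets at or above the 40th percentile on at least 3 arrays were fitted with limma 3.58.1 in R 4.3.3 (lmFit, eBayes with trend, group as the term). The brightest kept probe set stood for each of 12628 genes, with Benjamini-Hochberg adjustment over genes at 0.05. Per the labels, arrays with the same number come from 1 pool of embryos and are paired; after subtracting group means, the partners' correlations were 0.542, 0.286 and 0.436. On simulated data the fit without the pool kept to its threshold, and the fit with the pool as a block exceeded it. The simulated data had a far smaller share of changed probe sets than the share of genes called here, so these rates may not hold here. Hox genes that passed in either fit, and the brightest of each cluster, are given on all arrays. In other lists the 3 smallest adjusted p, or the 2 largest changes if none passed, are named. Members and lists were chosen with earlier results of these data known. Promoters are RefSeq windows on GRCm38.p6.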

Additional observations from a re-analysis of the deposited data

How the results depend on the processing

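The counts of 1 higher and 2 lower Hox genes were the same with offsets of 16 and 64, quantile normalization, no filter, the 60th percentile, no variance trend, the mean over probe sets, adjustment over probe sets and, chosen after seeing the data, a fit over 1 probe set a gene. Median scaling gave 1 and 3, the pool as a replicate block 2 and 5, and an adjusted p under 0.1 gave 2 and 3. Leaving out 1 array gave 0 to 4 higher and 0 to 6 lower, and leaving out 1 pool 0 to 5 and 0 to 9. The 4 and 6 came without GFP-negative array 1, where 1293 of all 12628 genes were higher and 1294 lower. Leaving out any other array gave 62 to 296 higher and 11 to 192 lower over all genes. The median of groups 1 to 3 was 0.46 with median scaling, -0.0084 with the mean over probe sets, and 0.0083 to 0.40 without 1 array and 0.033 to 0.29 without 1 pool. For groups 4 to 8 it was -0.33 to -0.068 without 1 array and -0.20 to 0.093 without 1 pool, and for groups 9 to 13 -0.71 to -0.52 without 1 array and -0.72 to -0.50 without 1 pool. Hoxa9 ran between -0.70 and 0.087 without 1 array, and between -0.73 and 0.13 without 1 pool. Over all genes the counts of 329 higher and 180 lower became 1076 and 868 with the block, 556 and 147 with median scaling (which moved the median of all genes to 0.18), 226 and 94 without the filter, 652 and 461 at 0.1, and 2440 and 2180 without pool 1. The cause was not tested. Signal limits Hoxc9, Hoxc10 and Hoxd10, which were under the percentile on some GFP-positive arrays.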

Other observations

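Of 21 measured Polycomb and trithorax genes, which keep Hox clusters silent or active, 1, Cbx7, was called higher and 0 lower, against 2.61% and 1.43% of all genes, while 4 and 1 met an unadjusted p under 0.05, against 12.1% and 9.74% of all genes. Cbx7, a chromodomain subunit of Polycomb complexes, had 43.1, 43.9 and 44.5 in GFP-positive pools 1 to 3, against 0.903, 1.60 and 9.65 in GFP-negative pools 1 to 3. The 3 GFP-negative values lay under the 40th percentile of their arrays, so Cbx7 entered the fit only through the group where it was high, had to differ, and has no measured level in GFP-negative cells. Its fitted difference was 1.08 ± 0.15 (limma, adjusted p = 0.00985). The call was lost without GFP-positive array 2 or 3 (adjusted p = 0.0506 and 0.0513), GFP-negative array 2 (0.0757), pool 2 (0.298) or pool 3 (0.0705). Next were Phc2 (0.78 ± 0.21, adjusted p = 0.0755) and Pcgf2 (-0.62 ± 0.21, adjusted p = 0.138). With the pool as a block Phc2 and Men1 also passed as higher.

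Of 13 genes next to the clusters 0 passed in limma without the block, where 2.61% of all genes were higher and 1.43% lower. An unadjusted p under 0.05 was met by 1 higher and 1 lower gene, against 12.1% and 9.74% of all genes. The largest differences were -0.58 ± 0.21 for Ttll6, which passed as lower with the block (adjusted p = 0.0406), and -0.55 ± 0.39 for Cbx5. Among antisense symbols of the clusters, Hoxb5os had 3116, 4462 and 3849 in GFP-positive pools 1 to 3, against 6451, 3461 and 4038 in GFP-negative pools 1 to 3. The groups overlapped, with a log2 fold change of -0.25 ± 0.26. Hoxa11os had -0.43 ± 0.17, and the kept probe sets of Hoxd3os1 had 0.24 ± 0.45 and -0.43 ± 0.21. None of these 3 antisense genes passed.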
